A study of Rattus norvegicus with 72 samples.

Results

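The nuclear-encoded respiratory chain genes were taken as all genes whose symbols name a subunit of complexes I to V or of their close family (Ndufa, Ndufb, Ndufc, Ndufs, Ndufv, Sdha to Sdhd, Uqcr, Cox4 to Cox8 and Atp5), and 80 of the 14506 genes measured met this rule. They comprised 33 genes of complex I, 3 complex I assembly factors, 4 of complex II, 7 of complex III, 15 of complex IV, 16 of complex V (the ATP synthase, its inhibitor included) and 2 genes named as pseudogenes. Ndufa4, now known as a subunit of complex IV, was kept with complex I by its symbol. The study took liver RNA from 36 rats and hybridised 72 Affymetrix Rat Gene 1.0 ST arrays. Each rat underwent partial hepatectomy (PHx), in which a portion of the liver is cut away and the rest grows back, and gave 2 samples, namely the piece cut away (the control liver) and the remnant 1, 6 or 24 h afterwards. The animals were fed ethanol (EtOH, chronic per the labels), a high fat control diet (HF) or a carbohydrate control diet (CHO), with 4 animals for each diet and time. The sources used here do not give the diets' composition and length or the animals' strain and age.

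Responses to PHx were measured within the 27 animals whose arrays were both kept, 9 arrays having been marked as outliers by the submitters. At 1, 6 and 24 h these numbered 4, 4 and 3 for EtOH, 3, 2 and 3 for HF and 3, 3 and 2 for CHO. The diets were also compared before surgery, on 29 control arrays, 12 from EtOH, 9 from HF and 8 from CHO animals. A response is the whole change from the liver at surgery to the remnant, and the samples include no sham surgery. The titles and the source names give the HF and CHO diets the other way round, and the titles were used. All values are log2 expression levels, with array medians of 4.54 to 4.77, and a difference of 1 is a doubling. Precision is limited by how few animals each group holds. All 10 hepatocyte markers lay above the median of all values (4.65), whereas 6 of 8 striated muscle markers and 4 of 4 brown fat markers lay under it.

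The respiratory chain sits in the inner mitochondrial membrane. Complexes I and II pass electrons from NADH and succinate to ubiquinone, complex III passes them on to cytochrome c and complex IV to oxygen, and complex V uses the proton gradient so formed to make ATP. Most subunits are encoded in the nucleus and imported, and complexes I, III, IV and V also hold subunits encoded in mitochondrial DNA, which were not analysed here. Hepatocytes are rich in mitochondria, and a remnant liver depends on their ATP while it regrows.

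Of the 80 genes, 6 lay under the median of all values and are not shown to be above background, namely Cox4i2, Cox6a2, Cox6b2, Cox8b, Cox8c and the pseudogene Cox6c-ps1. The isoforms Cox6a2 and Cox8b are known from heart and skeletal muscle. In bulk tissue, fewer cells of a type and less RNA per cell cannot be told apart.

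The promoters of 5 genes are shown first, being those of the 2 largest rises at 6 h, of the largest fall and of the 2 genes of complex V with the smallest p among the falls, as the 150 bases before the annotated start (RefSeq, build GRCr8, 5′ to 3′ on the strand of the gene). Capitals mark a core motif of NRF1, the nuclear respiratory factor that activates many of these genes, searched as GCGCATGC on both strands. Ndufaf4 (chr5:43401645-43401794, plus strand) and Ndufa5 (chr4:53971236-53971385, minus strand) rose, and Ndufa6 (chr7:115750318-115750467, minus strand), Atp5me (chr14:1464710-1464859, plus strand) and Atp5mc2 (chr7:135678219-135678368, minus strand) fell.
Ndufaf4: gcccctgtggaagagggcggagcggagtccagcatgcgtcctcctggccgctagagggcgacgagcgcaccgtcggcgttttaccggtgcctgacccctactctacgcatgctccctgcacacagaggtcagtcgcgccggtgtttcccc
Ndufa5: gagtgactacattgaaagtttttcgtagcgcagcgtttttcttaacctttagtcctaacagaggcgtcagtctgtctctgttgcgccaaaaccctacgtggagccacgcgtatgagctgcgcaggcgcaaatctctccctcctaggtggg
Ndufa6: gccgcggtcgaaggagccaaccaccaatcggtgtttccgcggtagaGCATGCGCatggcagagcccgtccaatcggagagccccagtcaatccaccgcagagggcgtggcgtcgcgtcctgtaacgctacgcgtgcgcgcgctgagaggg
Atp5me: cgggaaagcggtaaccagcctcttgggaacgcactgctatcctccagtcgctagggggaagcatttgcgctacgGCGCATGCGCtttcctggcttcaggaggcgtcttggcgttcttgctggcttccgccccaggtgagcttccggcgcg
Atp5mc2: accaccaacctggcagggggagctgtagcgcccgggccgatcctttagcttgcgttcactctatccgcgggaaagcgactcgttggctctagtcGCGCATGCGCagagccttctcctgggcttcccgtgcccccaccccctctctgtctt

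Promoters were matched for 70 of the 80 genes, and 7 of these (10%) held the NRF1 motif against 1.70% of all 33469 promoters. The 7 genes were Atp5mc2, Atp5me, Atp5po, Cox8c, Ndufa11, Ndufa6 and Uqcrc1. Although all 3 of the falling genes shown hold the motif, it was present in 4 of the 19 matched genes that fell at 6 h and in 0 of 4 that rose. In Atp5me and Atp5mc2 the matches on the 2 strands overlap. The motif CCGGAAGT of ETS factors such as GABPA, whose human counterpart is also called NRF2, was held by 6 of the 70 promoters (8.57%) and by 2.59% of all promoters. The element TCAAGGTCA of ERR nuclear receptors was held by 1 of 70, that of Atp5mc3 (1.43% against 0.179%), and the motif AAGATGGCG of YY1 by 1 of 70, that of Atp5pf (1.43% against 0.445%). The E-box CACGTG, which MYC and USF bind, was held by 3 of 70 (4.29% against 3.74%). The median GC content of the same 150 bases was 58.3% for the 70 genes and 52.7% for all promoters. These matches describe letters in the window and not sites of binding.

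At 1 h after PHx none of the 80 genes passed the test in the mean of the 3 diets (limma called 0, with p adjusted across the 14506 genes by Benjamini-Hochberg and a threshold of 0.05, against 10.3% of all genes in either direction, 4.47% higher and 5.83% lower). At an unadjusted p under 0.05, 1 gene was higher and 7 were lower, and the adjusted count was also 0 under the 8 alternative settings and without any of the 27 animals. The median of the 80 genes was -0.07 (-0.05 with all 72 arrays), against -0.01 over all genes, and the single changes ran from -0.16 to 0.22. Taken per animal, the median over the 80 genes was below 0 in 9 of 10 animals (-0.16 to 0.09, median -0.09). The median over all genes was above 0 in 0 of 10 animals (-0.03 to -0.01, median -0.02), so the sign alone does not set the 80 genes apart. Cox6c, a structural subunit of complex IV, was lower in 10 of 10 remnants, by -0.17 to -0.02, a change of -0.10 ± 0.04 (SE) that did not pass the test (limma adjusted p = 0.152). By diet, limma called 0 of the 80 genes in EtOH, HF and CHO animals alike, against 2.94%, 2.12% and 1.85% of all genes (unadjusted p under 0.05 for 2 genes higher and 0 lower, 1 higher and 3 lower, and 1 higher and 1 lower).

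At 6 h a minority of the chain had fallen, and an assembly factor and 3 subunits had risen. In the mean of the diets 25 of the 80 genes fell (background 19.9% of all genes) and 4 rose (background 20.0%). The median of the 80 was -0.08 (-0.14 with all 72 arrays), against 0.00 over all genes, and per animal it lay between -0.20 and 0.01 (median -0.08), a range that overlaps with that at 1 h. Those that fell were 12 of complex I, 3 of 4 of complex II, 1 of complex III, 4 of complex IV, 4 of complex V and the pseudogene Ndufs6-ps1. In 14 genes all 9 animals showed a fall (14.0% of all genes did) and in 2 genes all 9 showed a rise (13.9%), and in 7 genes the control and remnant levels did not overlap (16.4% of all genes). The count of 29 rested in part on HF replicate 3, 1 of 2 HF animals, without which 17 genes passed (3 higher and 14 lower).

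**Figure D1:**
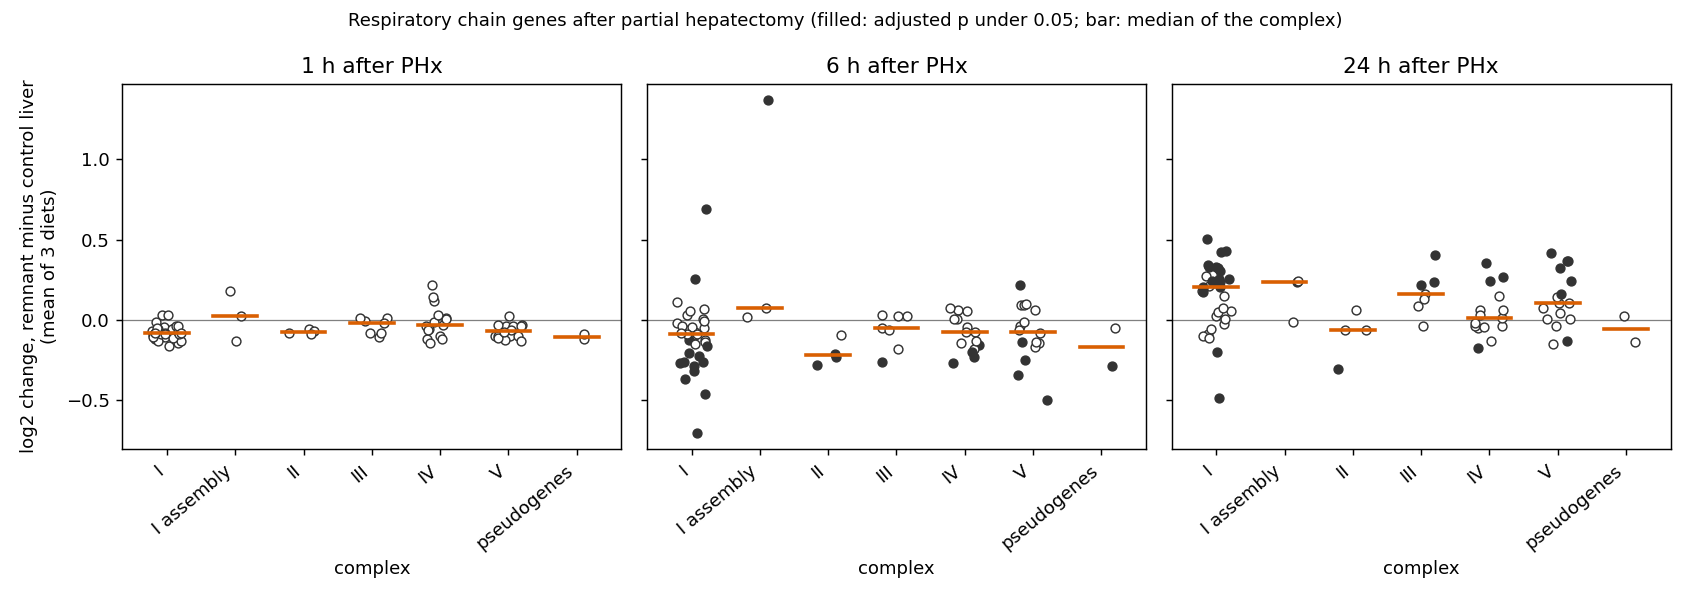
Each point is a gene, placed by complex, with its log2 change from control liver to remnant (mean of 3 diets) on the vertical axis at 1, 6 and 24 h. Filled points passed limma at an adjusted p under 0.05 and bars are medians. No point is filled at 1 h, most filled points lie under 0 at 6 h (25 of 29) and most lie above 0 at 24 h (30 of 35).

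Ndufaf4, a factor that assembles complex I and is no part of the finished enzyme, showed the largest change of all 80 genes. Its level was 6.89 to 7.67 (median 7.50) in the 9 control livers and 8.59 to 9.52 (median 8.64) in the remnants at 6 h. Every animal rose, and no remnant overlapped a control liver. The rise was 1.01, 1.91, 1.20 and 0.99 in the EtOH animals, 1.35 and 1.01 in the HF animals and 2.14, 1.83 and 0.97 in the CHO animals, a mean change of 1.37 ± 0.12 (SE, limma adjusted p = 2.85e-10), or 2.58-fold. The other assembly factors, Ndufaf1 and Ndufaf3, changed by 0.07 ± 0.08 and 0.02 ± 0.06 (limma adjusted p = 0.56 and 0.872).

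Ndufa5, an accessory subunit of the matrix arm of complex I, lay at 7.56 to 8.03 (median 7.76) in control livers and at 8.29 to 8.64 (median 8.42) in remnants. All 9 animals rose, by 0.36 to 0.64 in EtOH, 0.73 and 0.81 in HF and 0.76 to 0.93 in CHO, and the levels did not overlap. The mean change was 0.69 ± 0.06 (SE, limma adjusted p = 2.5e-10). Ndufa7, also of the matrix arm, rose by 0.26 ± 0.08 (limma adjusted p = 0.00748), in 8 of 9 animals and with overlapping levels, a call lost without HF replicate 4. Atp5mc3, a gene for the c subunit whose ring turns in the membrane part of complex V, rose by 0.22 ± 0.08 (limma adjusted p = 0.0286). Its change was below 0 in 3 of 9 animals, and its call was lost without the animal as a block, with all 72 arrays and without any of 5 single animals (EtOH replicate 4, HF replicates 3 and 4, and CHO replicates 2 and 3).

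Ndufa6, the accessory subunit that binds the mitochondrial acyl carrier protein to complex I, fell the most. Control livers lay at 8.51 to 8.97 (median 8.77) and remnants at 7.92 to 8.30 (median 7.98). Each of the 9 animals fell, by 0.22 to 0.97, with no overlap between the groups. The mean change was -0.70 ± 0.08 (SE, limma adjusted p = 7.48e-08), a level 0.614 times that of the control liver. Ndufv3, an accessory subunit of the arm that oxidises NADH, lay at 8.70 to 9.08 (median 8.80) before and at 8.13 to 8.54 (median 8.35) after, again with no overlap and in 9 of 9 animals (-0.46 ± 0.05, limma adjusted p = 2.72e-08). A second probe set of Ndufv3 changed by -0.27 at 6 h. Ndufa8, Ndufb2 and Ndufb11, accessory subunits of complex I, fell by -0.27, -0.26 and -0.20, in 8, 9 and 8 of 9 animals.

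Complex II is encoded by nuclear genes alone. None of its 4 genes was called higher in the mean of the diets at 1, 6 or 24 h, against 4.47%, 20.0% and 16.6% of all genes. Sdhd, a membrane anchor, lay at 9.99 to 10.26 (median 10.16) in control livers and at 9.73 to 9.98 (median 9.90) in remnants at 6 h. Every animal fell and the groups did not overlap (-0.28 ± 0.06, limma adjusted p = 0.000397). Sdha, the subunit that oxidises succinate, lay at 9.69 to 9.89 before and 9.41 to 9.71 after, falling in 9 of 9 animals although the levels overlapped (-0.23 ± 0.05, limma adjusted p = 0.000461). Sdhc, the other anchor, fell by -0.21 ± 0.06 (limma adjusted p = 0.0051), in 8 of 9 animals.

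In complex V, Atp5me, subunit e of the membrane part, lay at 9.42 to 9.87 (median 9.58) in control livers and at 8.58 to 9.31 (median 9.19) in remnants at 6 h. All 9 animals fell, by 0.40 to 0.67 in EtOH, 0.23 and 0.20 in HF and 0.58 to 0.96 in CHO, with no overlap (-0.50 ± 0.09, limma adjusted p = 5.96e-05). The 3 genes for the c subunit, which encode the same mature protein, went different ways at 6 h. Atp5mc2 fell in 9 of 9 animals (-0.34 ± 0.05, limma adjusted p = 4.75e-06), Atp5mc3 rose as given above and Atp5mc1 changed by 0.06 ± 0.08 (adjusted p = 0.643). At 24 h it was Atp5mc1 that rose (0.36 ± 0.08, limma adjusted p = 0.00109), while Atp5mc2 was at 0.01 and Atp5mc3 at -0.04. The call of Atp5mc1 was lost with all 72 arrays, and the 2 probe sets of Atp5mc3 differed in sign at 24 h (-0.04 and 0.14). The differences among the 3 genes themselves were not tested.

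**Figure D2:**
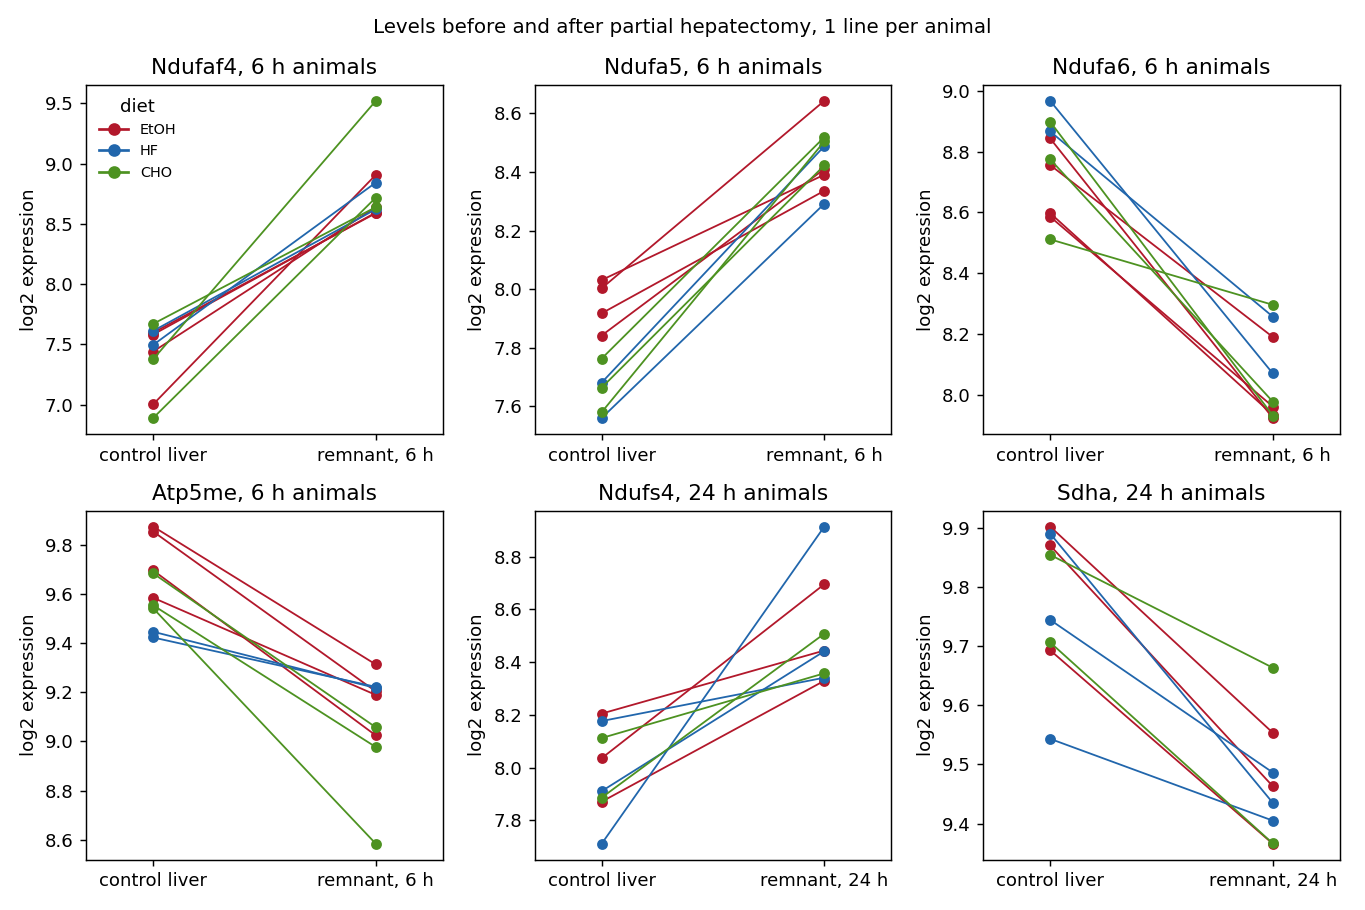
Each line joins the log2 level of an animal's control liver to that of its remnant, coloured by diet, for 4 genes at 6 h (9 animals) and 2 genes at 24 h (8 animals). Ndufaf4 and Ndufa5 rose and Ndufa6 and Atp5me fell in every animal at 6 h, and at 24 h Ndufs4 rose and Sdha fell in every animal.

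The genes of complexes III and IV called at 6 h were all lower. Uqcr11, a small subunit of complex III, fell in 9 of 9 animals (-0.26 ± 0.08, limma adjusted p = 0.0128, lost without HF replicate 4), and Cox6c fell in 9 of 9 by 0.14 to 0.28 (-0.23 ± 0.05, limma adjusted p = 0.000178). Cox8a and Cox6a1, the forms of their subunits found in liver, fell by -0.20 and -0.15, and these calls were lost without any of 2 and of 12 single animals. Cox4i2, a form of subunit 4 known from lung and induced by low oxygen, was called lower (-0.27), but at 3.54 to 4.03 in control livers it lay under the median of all values and its call was lost with all 72 arrays and without HF replicate 3. Cox4i1, the widely expressed form, changed by -0.08 ± 0.05 (limma adjusted p = 0.286). The muscle forms Cox6a2 and Cox8b changed by -0.04 ± 0.10 and -0.08 ± 0.10 (limma adjusted p = 0.822 and 0.601).

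At 24 h most of the genes called were higher in the remnant, 17 of them in complex I. In the mean of the diets 30 of the 80 genes rose (background 16.6%) and 5 fell (background 17.4%), with a median of 0.11 against -0.03 over all genes. The median was 0.07 after renewed quantile normalization and 0.02 with all 72 arrays. The genes that rose were 17 of 33 in complex I, 3 of 7 in complex III, 3 of 15 in complex IV, 6 of 16 in complex V and the assembly factor Ndufaf3, with none of 4 in complex II. The median change was 0.20 in complex I, 0.16 in complex III, 0.11 in complex V, 0.01 in complex IV and -0.06 in complex II. The split of 30 up and 5 down (85.7% up) was 22 and 8 (73.3%) after renewed quantile normalization and 16 and 10 (61.5%) with all 72 arrays, outliers included. Between scan days the 35 called genes kept their direction in 35, 25 and 35 cases, the second of these days holding 1 animal. The genes were called from these same animals, so this is no separate test.

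Ndufs4, an accessory subunit whose loss in humans causes Leigh syndrome, rose the most. Its level was 7.71 to 8.20 (median 7.97) in the 8 control livers and 8.33 to 8.91 (median 8.44) in the remnants at 24 h, with no overlap. The rise was 0.46, 0.66 and 0.24 in EtOH, 1.20, 0.16 and 0.53 in HF and 0.62 and 0.25 in CHO animals (mean of the diets 0.51 ± 0.09, limma adjusted p = 7.63e-05). Ndufa12, an accessory subunit of the matrix arm, lay at 8.17 to 8.52 (median 8.31) before and at 8.56 to 8.94 (median 8.71) after, rising in 8 of 8 animals and with no overlap (0.43 ± 0.06, limma adjusted p = 4.67e-06). Ndufs8, a core subunit that carries iron-sulfur clusters, was the third of 3 genes without overlap (6.77% of all genes), at 8.03 to 8.27 before and 8.33 to 8.58 after (0.26 ± 0.06, limma adjusted p = 0.00121). Ndufs8 had been called lower at 6 h (-0.16), a call lost without EtOH replicate 2, HF replicate 3 or CHO replicate 2 of the 6 h animals.

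All 8 animals showed a rise in 10 of the 80 genes and a fall in 2, and the matching shares of all genes are not given here. Further complex I genes that rose in 8 of 8 animals were Ndufa5 (0.33), Ndufb8 of the membrane arm (0.34) and Ndufab1, the acyl carrier protein (0.25). Ndufs1, the largest core subunit, rose by 0.33 ± 0.06 in 6 of 8 animals (limma adjusted p = 8.26e-05). Outside complex I, Atp5mk, a small membrane subunit of complex V, rose by 0.42 ± 0.08 in 7 of 8 animals (limma adjusted p = 0.00014), and its second probe set by 0.39. Uqcr11 rose by 0.41 ± 0.09 and Uqcrc1, a core protein of complex III, by 0.23 ± 0.06, each in 7 of 8 animals (limma adjusted p = 0.000543 and 0.00293). Cox5b of complex IV rose by 0.36 ± 0.08 in 8 of 8 animals (limma adjusted p = 0.00141), by 0.02 to 0.70. Cox7a2, the liver form of its subunit, rose by 0.24 ± 0.07 in 8 of 8 animals (limma adjusted p = 0.01, lost without HF replicate 1 or CHO replicate 2), and the related assembly protein Cox7a2l changed by -0.04 ± 0.10 (limma adjusted p = 0.823). The calls of Uqcr11, Uqcrc1 and Cox5b were lost with all 72 arrays.

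The 5 genes that fell at 24 h were Ndufa6, Sdha, Ndufs7, Cox6c and Atp5f1b. Ndufa6 was lower in 7 of 8 animals, by -1.20 to 0.02 with a median of -0.48 (-0.49 ± 0.09, limma adjusted p = 5.45e-05), and its levels overlapped. Sdha fell in 8 of 8 animals, by 0.14 to 0.45 (-0.30 ± 0.05, limma adjusted p = 4.1e-05). Cox6c fell in 8 of 8 animals (-0.18 ± 0.05, limma adjusted p = 0.00575) and Ndufs7, a core iron-sulfur subunit, in 7 of 8 (-0.20 ± 0.06, limma adjusted p = 0.00888). Both calls were lost without CHO replicate 4, 1 of 2 CHO animals. Atp5f1b, the catalytic beta subunit of complex V, changed by -0.13 ± 0.05 (limma adjusted p = 0.0333), a call lost after quantile normalization and with array weights. Ndufaf4 did not pass the test at 24 h (0.25 ± 0.12, limma adjusted p = 0.138), with 4 of 8 animals higher and 4 lower. Its changes were 0.30, 0.89 and -0.05 in EtOH, -0.03, 0.76 and -0.03 in HF and -0.16 and 0.40 in CHO animals. The rises were thus larger than the falls.

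The 6 h and 24 h animals are different rats, so the 2 responses were compared directly, in a comparison added after the data were seen. Relative to 6 h, 32 of the 80 genes were higher at 24 h (background 14.6%) and 2 were lower (background 14.4%), with a median difference of 0.21 against -0.03 over all genes. The higher genes were 18 of complex I, 8 of complex V, 2 each of complexes III and IV, Sdhc and Ndufaf3. The 2 lower genes were Ndufaf4 (-1.12 ± 0.17, limma adjusted p = 1.2e-05) and Ndufa5 (-0.36 ± 0.09, limma adjusted p = 0.00186). Leaving out HF 6 h replicate 3 or CHO 6 h replicate 2 lowered the count of 34 to 19 or 22. Each scan day held animals of a single time. Both arrays of an animal share a scan day, so a constant shift of a day cancels within the animal. Any other effect of the scan day cannot be told apart from time here. Of the 25 genes that fell at 6 h, 4 rose at 24 h (Ndufa11, Ndufb10, Ndufs8 and Uqcr11). Another 4 of them also fell at 24 h (Atp5f1b, Cox6c, Ndufa6 and Sdha). Both counts are near the shares of all genes called at 24 h, 16.6% higher and 17.4% lower. The same overlaps over all genes are not given here. Of the 4 that rose at 6 h, Ndufa5 and Ndufa7 were also up at 24 h.

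**Figure D3:**
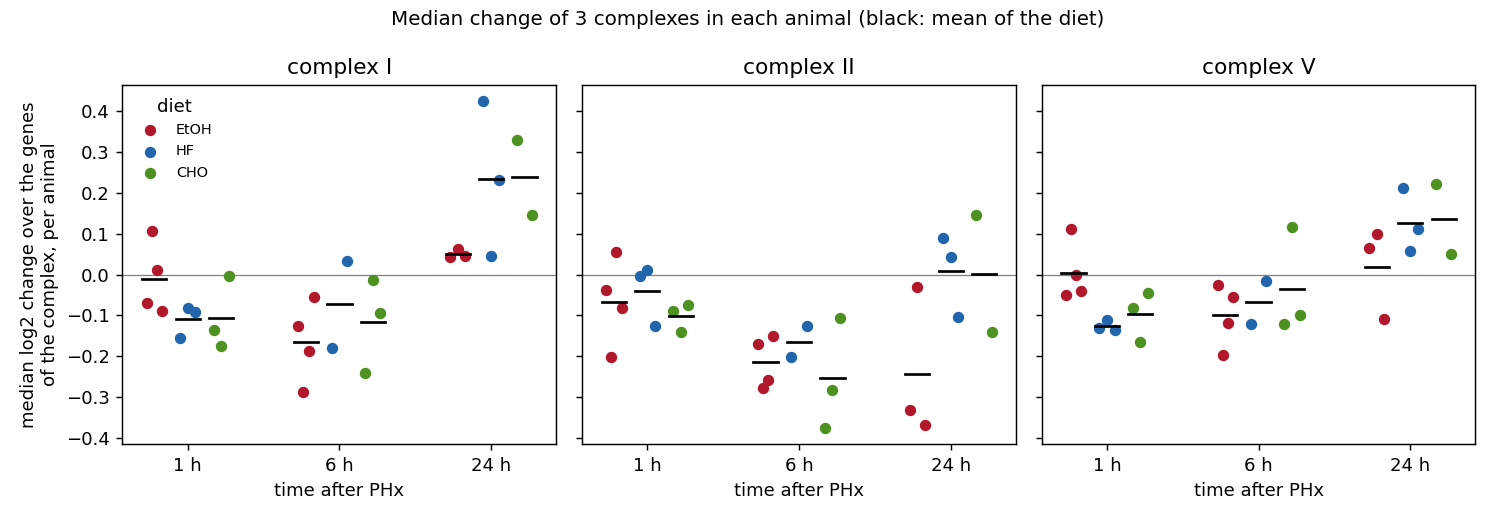
Each point is an animal, with the median log2 change over the genes of complex I, II or V on the vertical axis and time after PHx on the horizontal axis, coloured by diet. The complex I medians were above 0 in 8 of 8 animals at 24 h (0.04 to 0.43) and in 1 of 9 at 6 h, whereas the complex II medians were under 0 in 9 of 9 at 6 h and above 0 in 3 of 8 at 24 h.

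The genes around the chain were described by counts, to be read against 4.47% of all genes higher and 5.83% lower at 1 h, 20.0% and 19.9% at 6 h and 16.6% and 17.4% at 24 h. At 6 h, 16 of 23 genes for mitochondrial protein import and chaperones rose and 1 fell, with a median of 0.34, and at 24 h 12 rose and 1 fell, with a median of 0.21. Among 29 assembly factors outside the 80 genes, 0 rose and 7 fell at 1 h, 7 rose and 7 fell at 6 h, and 11 rose and 2 fell at 24 h. Of 15 genes of the citric acid cycle and pyruvate dehydrogenase, 7 rose and 3 fell at 6 h and 5 rose and 3 fell at 24 h. Of 15 genes of coenzyme Q and electron entry, 4 rose and 4 fell at 6 h and 5 rose and 6 fell at 24 h. Of 11 mitochondrial carriers and channels, 5 rose and 3 fell at 6 h and 5 rose and 0 fell at 24 h.

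Of 24 regulators of mitochondrial gene expression, 4 rose and 5 fell at 1 h, 10 rose and 8 fell at 6 h, and 2 rose and 10 fell at 24 h. Ppargc1a, the coactivator that switches on mitochondrial genes, changed by 2.17 ± 0.11 at 1 h (limma adjusted p = 2.61e-13), when none of the 80 genes passed the test, and by -0.42 ± 0.12 at 24 h (limma adjusted p = 0.00943). Pprc1, a related coactivator of growing cells, rose by 0.48 at 1 h and by 1.56 ± 0.16 at 6 h (limma adjusted p = 3.81e-09). At 6 h the transcription factors Nrf1 (0.52), Gabpa (0.43) and Esrra (0.43) and the mitochondrial DNA factor Tfam (0.39) also rose, and at 24 h none of these 4 passed the test. Cycs, the cytochrome c that carries electrons from complex III to complex IV, rose by 0.78 ± 0.07 at 6 h and 0.66 ± 0.07 at 24 h (limma adjusted p = 6.64e-10 and 5.19e-08).

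Some markers of other cells also passed the test at these times. Their counts are to be read against 20.0% of all genes higher and 19.9% lower at 6 h, and 16.6% and 17.4% at 24 h. Of 11 macrophage markers 4 rose and 0 fell at 6 h and 4 rose and 3 fell at 24 h, and of 6 endothelial markers 4 rose and 0 fell at 6 h and 1 rose and 2 fell at 24 h. Of 10 hepatocyte markers 3 rose and 3 fell at 6 h, and 1 rose and 5 fell at 24 h, with list medians of -0.02 and -0.12. Of 8 stellate cell markers 1 rose and 4 fell at 6 h and 2 rose and 3 fell at 24 h, of 7 neutrophil markers 4 and 3 rose, and of 3 erythroid markers 2 and 3 fell. Of 7 lymphocyte markers 1 fell at each time, of 4 cholangiocyte markers 1 fell at 6 h, and no striated muscle or brown fat marker passed. All 7 neutrophil, 5 of 7 lymphocyte, 2 of 4 cholangiocyte and 1 of 8 stellate cell markers lay under the median of all values. Such markers are not shown to be above background. The mean level of the macrophage markers in remnants ran from 7.21 to 8.56 at 6 h and from 7.61 to 8.32 at 24 h, and that of the hepatocyte markers from 12.34 to 12.48 and from 12.20 to 12.37. Their part in the responses of the respiratory chain was not tested.

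Whether ethanol feeding changed the response was asked by comparing EtOH with the mean of the control diets. At 1 h limma called 0 of the 80 genes, as it did of all genes (0%), with 7 higher and 1 lower at an unadjusted p under 0.05. At 6 h it again called 0, against 3.46% of all genes, with 0 higher and 3 lower at an unadjusted p under 0.05. At 24 h 1 gene was lower (background 5.10%) and 0 were higher (background 1.19%), with 2 higher and 13 lower at an unadjusted p under 0.05. The median difference at 24 h was -0.12, against -0.02 over all genes, but -0.03 with all 72 arrays and -0.01 after quantile normalization, which brought the median of all genes to 0.01.

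The gene called lower was Ndufs1. At 24 h it changed by -0.03, 0.35 and -0.16 in the EtOH animals, by 0.45, 0.56 and 0.23 in the HF animals and by 0.61 and 0.44 in the CHO animals. The highest EtOH animal lay above the lowest HF animal, so the groups overlapped. The difference was -0.42 ± 0.12 (SE, limma adjusted p = 0.0419). The call was lost with all 72 arrays, after quantile normalization, with array weights and without the animal as a block. It was also lost without EtOH 1 h replicate 1, EtOH 6 h replicate 1, EtOH 24 h replicate 1 or 3, HF 1 h replicate 2, HF 24 h replicate 1 or 2, CHO 1 h replicate 4 or CHO 24 h replicate 2, and over all settings and left-out animals the difference stayed between -0.57 and -0.31. Without EtOH 24 h replicate 2 the count rose to 5 genes, and without CHO 24 h replicate 4 to 3. In control livers Ndufs1 differed between EtOH and the control diets by 0.06 ± 0.06 over the 3 cohorts (limma adjusted p = 0.559). In the 24 h cohort alone, EtOH control livers lay higher by 0.16, a difference that was not tested. The response and control comparisons share control arrays. The genes next in line, none of which passed the test, were Ndufs5 (-0.50 ± 0.17, limma adjusted p = 0.0775), Atp5mk (-0.48 ± 0.16, limma adjusted p = 0.0817) and the iron-sulfur subunit Sdhb of complex II (-0.41 ± 0.14, limma adjusted p = 0.0922). In the control livers of the 24 h cohort these genes were higher in EtOH, by 0.66, 0.25 and 0.30. Of the 80 genes 71 were higher there, with a median difference of 0.17. The matching share of all genes is not given here, and this cohort held 2 CHO control livers. The part of the starting level in the response difference was not tested.

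**Figure D4:**
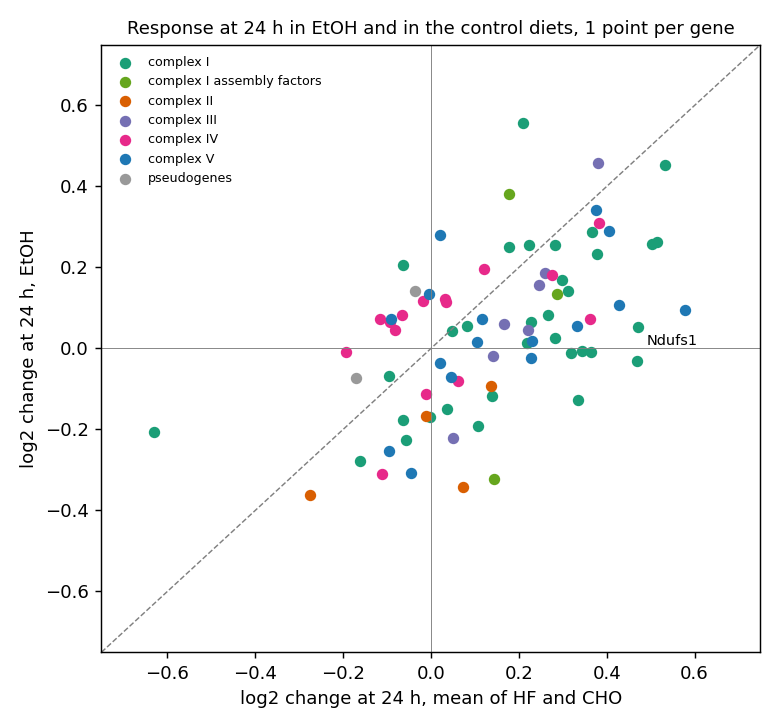
Each point is a gene, with its log2 change at 24 h in the mean of the HF and CHO animals on the horizontal axis and in the EtOH animals on the vertical axis, and the dashed line marks equal change. Of the 80 genes, 58 (72.5%) lie under the line, against 52.6% of all genes, and Ndufs1 (-0.42) is the gene that passed limma. In control livers of the 24 h cohort, 71 of the 80 genes were higher in EtOH (median 0.17), with the share of all genes not given.

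By diet, 2 genes rose and 17 fell in EtOH animals at 6 h (backgrounds 16.5% and 17.8%), 3 rose and 2 fell in HF animals (10.0% and 9.30%) and 2 rose and 11 fell in CHO animals (14.8% and 14.3%). Ndufaf4, Ndufa5, Ndufa6 and Ndufv3 passed in all 3 diets. At 24 h, 3 genes rose and 5 fell in EtOH (backgrounds 5.51% and 8.68%), 16 rose and 3 fell in HF (14.1% and 10.8%) and 7 rose and 1 fell in CHO (9.73% and 6.92%). These counts come from 2 to 4 animals each, and a gene that passed in some diets and not in others is not shown to differ between them. Directly compared, HF and CHO responses differed for 0 of the 80 genes and 0% of all genes at 1 h, 0 and 0% at 6 h and 0 and 0% at 24 h in limma. At an unadjusted p under 0.05 there were 0, 1 and 0 genes higher and 0, 0 and 1 lower in HF.

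Before surgery, ethanol-fed livers held more mRNA of part of the chain. In control livers 13 of the 80 genes were higher in EtOH than in the mean of the control diets (background 9.08%) and 0 were lower (background 7.76%; 19 higher and 0 lower at an unadjusted p under 0.05). They were 7 genes of complex I, Sdhc of complex II, Cox5a and Cox6c of complex IV and Atp5f1d, Atp5po and the inhibitor Atp5if1 of complex V. The median difference was 0.07 (0.05 with all 72 arrays), against 0.01 over all genes, and the largest was 0.36. Taken against each control diet, the median was 0.13 against CHO and 0.03 against HF. Between the control diets, HF lay above CHO by a median of 0.07, with 0 of the 80 genes called. A median difference of this size was therefore also seen without EtOH. In none of the 80 genes did every EtOH liver lie above every HF and CHO liver (0.614% of all genes).

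Ndufs5, an accessory subunit on the intermembrane side of complex I, lay at 8.20 to 8.66 (median 8.48) in the 12 EtOH livers, 7.73 to 8.24 (median 8.18) in the 9 HF livers and 7.87 to 8.35 (median 8.02) in the 8 CHO livers. The lowest EtOH livers overlapped with the highest of both control diets. The difference was 0.36 ± 0.07 (SE, limma adjusted p = 0.000442), or 28.5% more. Ndufa3, of the membrane arm, had medians of 8.53, 8.18 and 8.15 in EtOH, HF and CHO livers (ranges 8.17 to 8.67, 7.75 to 8.38 and 7.84 to 8.47), a difference of 0.35 ± 0.07 (limma adjusted p = 0.000533).

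Sdhc lay at 9.96 to 10.14 (median 10.08) in EtOH livers, 9.74 to 9.97 (median 9.85) in HF and 9.69 to 10.08 (median 9.76) in CHO livers. The EtOH livers lay high and close together, and the lowest of them overlapped with the highest HF and CHO livers (0.22 ± 0.05, limma adjusted p = 0.00107). Atp5f1d, the delta subunit of the central stalk of complex V, had medians of 10.24, 10.03 and 9.99 in EtOH, HF and CHO livers and overlapping ranges (0.25 ± 0.05, limma adjusted p = 0.00146). Atp5po, which ties the stationary stalk to the catalytic head, differed by 0.29 ± 0.07 (limma adjusted p = 0.00341), and Cox5a, a nuclear subunit of complex IV, by 0.24 ± 0.06 (limma adjusted p = 0.0044). Cox5a passed against CHO alone (0.34, limma adjusted p = 0.00215) but not against HF alone (0.14, limma adjusted p = 0.194). The second probe sets of Ndufs5 and Cox5a differed by 0.31 and 0.26.

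**Figure D5:**
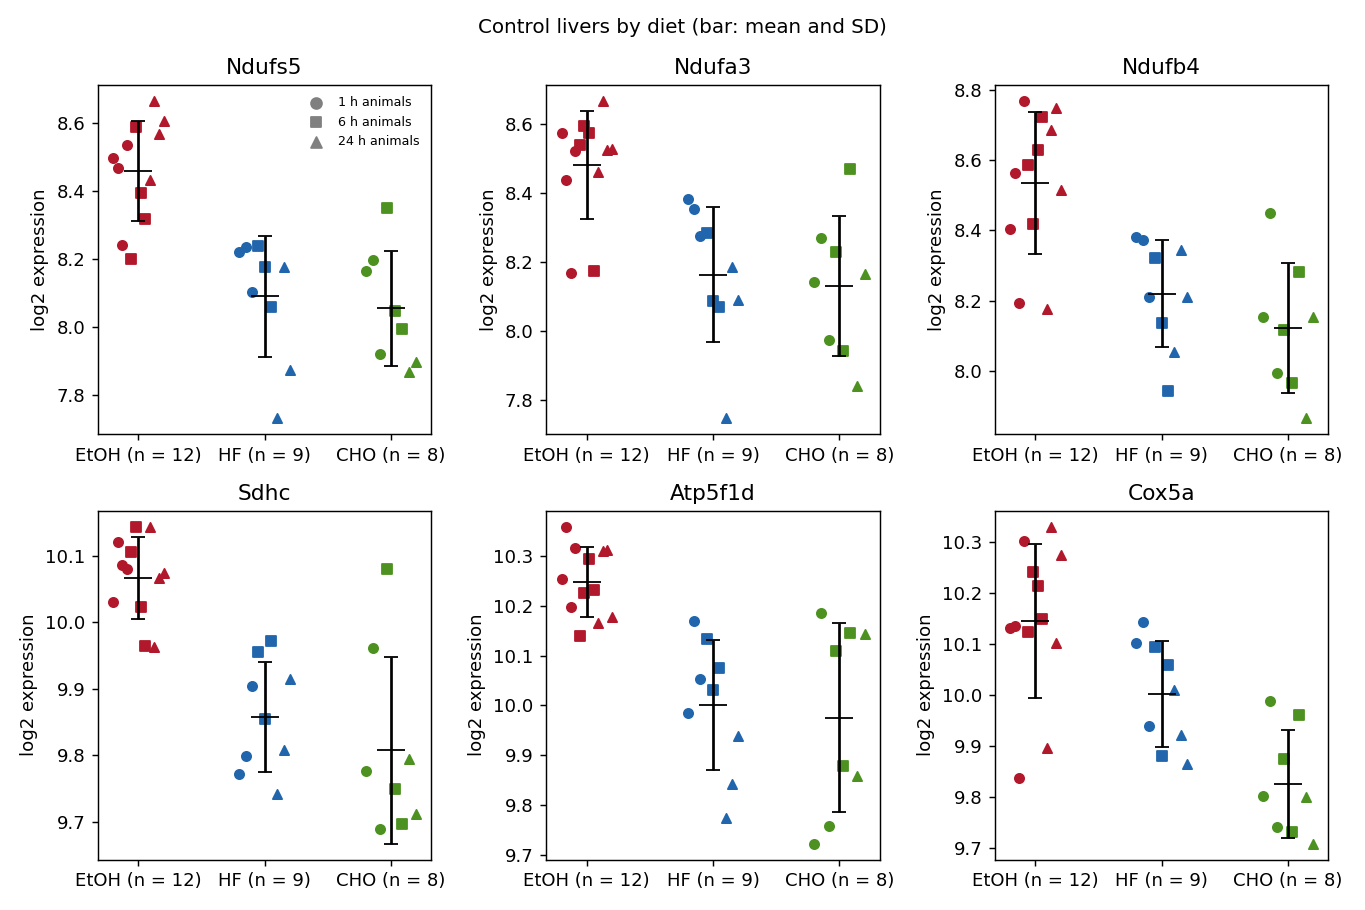
Each point is a control liver, with its log2 level on the vertical axis, by diet (12 EtOH, 9 HF and 8 CHO livers), the marker showing the cohort and the bar the mean and SD. The EtOH means lie above those of HF and CHO for all 6 genes, and in each gene the ranges overlap.

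The calls of Cox6c, Ndufb2, Ndufs3 and Atp5if1 were lost under 2 to 4 of 10 alternative settings, and the other 9 were kept under all of them and without any single animal. All 3 cohorts showed a higher EtOH mean for 12 of the 13 genes, the exception being Atp5if1 (2 of 3). The genes were called from these same cohorts, so the agreement is no separate test. The median EtOH difference over the 80 genes was 0.06, 0.05 and 0.17 in the animals of the 1, 6 and 24 h cohorts. Within the 6 scan days that held EtOH and control diets it was -0.02, 0.09, 0.16, 0.16, -0.05 and 0.24.

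Against CHO alone 12 of the 80 genes were higher in EtOH (background 6.35%) and 0 lower (5.46%), and against HF alone 8 were higher (7.41%) and 0 lower (6.05%), 7 of them in both lists (58.3% of the first and 87.5% of the second). The 2 comparisons share the EtOH livers. The count of 8 fell to 4 or 5 without EtOH 1 h replicate 4, EtOH 6 h replicate 2, 3 or 4, EtOH 24 h replicate 2 or 4, HF 1 h replicate 4, HF 6 h replicate 4 or HF 24 h replicate 1. With the replicate number as a block in place of the scan day, the count of 12 against CHO was 22. HF and CHO livers differed for 0 genes in limma (background 0.165%), with 12 higher and 0 lower in HF at an unadjusted p under 0.05.

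Macrophage markers were higher in the same livers. In EtOH against the mean of the control diets 9 of 11 were called higher (background 9.08%) and 0 lower (background 7.76%), with a list median of 0.36. Their mean level ran from 7.55 to 8.42 in EtOH, 7.13 to 7.94 in HF and 7.31 to 7.95 in CHO livers. None of the 11 lay under the median of all values. Of 10 hepatocyte markers 1 was higher and 0 lower, at mean levels of 12.29 to 12.56, 12.23 to 12.40 and 12.30 to 12.46 in the 3 diets. Their part in the difference of the respiratory chain was not tested. Of the regulators named above, Pprc1 and Gabpa differed by -0.45 ± 0.12 and -0.27 ± 0.07 in EtOH livers (limma adjusted p = 0.00729 and 0.00785), and Ppargc1a by 0.16 ± 0.15 (limma adjusted p = 0.565).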

How the data were processed

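Rat liver RNA was measured on Affymetrix Rat Gene 1.0 ST arrays. Per the submitters' processing notes, the deposited values are log2 RMA signals made with Affymetrix Expression Console (version not stated there). The batch-corrected table was used; tested against the uncorrected values, it differs by a constant per probe set and scan day (8 days). A gene is the probe set with the highest mean, and 15310 of 29214 probe sets carry 1 gene symbol. The 9 outlier arrays and the pairs they break were left out. CHO control columns of 1 h replicate 3 and 6 h replicate 1 hold the values of the same animals' PHx arrays in the authors' table without outliers (r = 0.985 and 0.992) and were left out too. The EtOH 24 h replicate 4 PHx array, tagged high fat, is an outlier. The labels' protocol also names 12 h, a time not analysed here.

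limma 3.58.1 (R 4.3.3) fitted responses with the animal as a block (18 residual degrees of freedom), since both arrays come from 1 animal (r of their deviations -0.699 to 0.445, over 0.1 in 17 of 27 animals), and control livers with the scan day as a block (19). P-values were adjusted over 14506 genes (Benjamini-Hochberg) and called under 0.05. Scripts were tested on simulated data. Every member may be named, and other genes are the regulators and Cycs. Members and lists were chosen with earlier results of these data known. Alternatives were the authors' other table, all arrays, quantile normalization, array weights, mean of probe sets, a filter on dim genes, another prior, other blocks and each animal left out. Promoters are from RefSeq tables.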

Additional observations from a re-analysis of the deposited data

Results flagged for a closer look

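Among 74 groups of 4 to 10 values, 4 held a value far from the rest, and chance flags about 1 in 20 groups. In EtOH replicate 2 at 1 h, Cox6c changed by -0.02, against -0.09 to -0.08 in the other 3 EtOH animals, and Uqcrh by 0.36, against 0.04 to 0.08. In EtOH replicate 4 at 6 h, Cox4i2, which lies under the median of all values, changed by 0.16, against -0.26 to -0.20 in the others. The Ndufa3 level of the HF control liver of 24 h replicate 1 was 7.75, against 8.07 to 8.38 in the other 8 HF livers. The response of Ndufs1 at 24 h differed between EtOH and the mean of the control diets by -0.42 (limma adjusted p = 0.0419 for the difference itself), with the overlap and the lost calls given above.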

How the results depend on the processing

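Of the genes called, 14 at 6 h, 12 at 24 h and 9 in control livers (EtOH against the mean of the control diets) passed under every alternative and without any single animal, and no called value changed sign. The counts that moved by over 1.5 times were the EtOH difference at 24 h (1 gene), which was 0 with all 72 arrays, after quantile normalization and with array weights, and 2 with a trended robust prior, and EtOH against CHO control livers (12 genes), which was 7 with all 72 arrays and 20 without the scan day. Leaving out single animals gave 17 to 30 genes at 6 h, 25 to 41 at 24 h, 19 to 39 for 24 h against 6 h, 0 to 5 for the EtOH difference at 24 h, and 9 to 16, 9 to 16 and 4 to 9 for EtOH livers against the control mean, CHO and HF. The causes were not tested. Without the animal as a replicate block, 27, 36 and 32 genes were called at 6 h, at 24 h and between them. Replicate numbers across diets share only a number (r over 25 pairs -0.228 to 0.288); as a block in place of the scan day they gave 17, 22 and 11 genes. Quantile normalization moved the median of all genes by at most 0.031. Array number limits the precision, and no detection calls were used.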
